A study of Mus musculus with 20 samples.

Results

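The 7 genes described here, Hmgcs1, Idi1, Fdft1, Sqle, Lss, Cyp51 and Dhcr7, encode enzymes of cholesterol synthesis. They were chosen by name as members of this pathway, with earlier results of these data known. Each matched 1 row among the 39174 genes of the deposited tables. No receptor for cholesterol uptake is among them. Their levels were available in 20 RNA-seq libraries of primary CD-1 mouse motoneurons cultured in microfluidic chambers, which let axons grow into a compartment away from the cell bodies. The cells came from embryonic spinal cord, enriched with an antibody against p75, and were kept for 7 days. Of the 4 groups, the somatodendritic control and the axonal control had 4 libraries each, and the somatodendritic and the axonal Tdp-43 knockdown had 6 each. Knockdown cells carried a lentivirus with 1 shRNA against Tdp-43, and control cells the empty lentiviral vector, so that both groups were transduced. Tdp-43 is an RNA-binding protein that is lost from the nucleus of motoneurons in amyotrophic lateral sclerosis, and the comparisons ask how its depletion and the compartment bear on these transcripts.

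Cholesterol is built from acetyl-CoA in the cytosol and the endoplasmic reticulum. The early steps make mevalonate and isoprenoid units, which also feed the synthesis of ubiquinone, dolichol and prenylated proteins, and the later steps join these units to squalene, close the sterol rings and trim them to cholesterol. Most genes of the pathway are switched on together by the transcription factor Srebp2 when sterols in the membrane run low. Neurons make cholesterol during development, and later take much of it from glia.

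On GRCm38, Hmgcs1 (ENSMUSG00000093930) lies at chr13:119690462-119708086 and makes HMG-CoA, the precursor of mevalonate. Idi1 (ENSMUSG00000058258), at chr13:8885501-8892451, interconverts the isoprenoid units. Fdft1 (ENSMUSG00000021273), at chr14:63145153-63177793, joins farnesyl units to squalene, the first step that leads only to sterols. Sqle (ENSMUSG00000022351), at chr15:59315077-59331192, oxidises squalene. Lss (ENSMUSG00000033105), at chr10:76531588-76557138, closes the rings to lanosterol. Cyp51 (ENSMUSG00000001467), at chr5:4081145-4104746, removes a methyl group from lanosterol. Dhcr7 (ENSMUSG00000058454), at chr7:143823145-143848410, carries out a last reduction to cholesterol. In GENCODE M21, 5 of the 7 genes overlap another gene on the opposite strand. Fdft1 shares 774 of its 4227 exonic bases with Ctsb, a lysosomal protease gene, and Cyp51 shares 166 of 4415 with Akap9. Idi1 shares 323 of 3505 with Gm48574, Hmgcs1 557 of 4594 with Gm48342 and Lss 381 of 10787 with 4930483K19Rik. Whether reads were assigned by strand is not given in the sources used here, so that reads from these shared bases cannot be told apart.

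Promoter windows of 250 bases before to 50 after a start site were matched in RefSeq (GRCm38.p6) for 5 of the 7 genes, Hmgcs1, Idi1, Lss, Cyp51 and Dhcr7. Dhcr7 had 3 starts, which gave 7 windows. They were searched on both strands for TCACNCCAC, a form of the sterol regulatory element that Srebp proteins bind, for CCAAT and for GGGCGG, the core of an Sp1 site. TCACNCCAC was found once, in Hmgcs1 at position -137 from the start, and in 1.24% of all 32851 windows. CCAAT was found in 5 of the 7 windows, at least 1 of each gene, against 37.4% of all windows, and GGGCGG in 6 of the 7, against 35.7%. The upstream part of 3 windows is shown because Idi1 and Dhcr7 had the largest somatodendritic differences after knockdown among the 7 genes, and Hmgcs1 the lettering TCACNCCAC. Capitals mark matches to TCACNCCAC and to CCAAT, which reads ATTGG on the other strand. The windows shown lie, on the plus strand, at chr13:119690101-119690350 for Hmgcs1, chr13:8885356-8885605 for Idi1 and chr7:143822917-143823166 for the first start of Dhcr7.
Hmgcs1: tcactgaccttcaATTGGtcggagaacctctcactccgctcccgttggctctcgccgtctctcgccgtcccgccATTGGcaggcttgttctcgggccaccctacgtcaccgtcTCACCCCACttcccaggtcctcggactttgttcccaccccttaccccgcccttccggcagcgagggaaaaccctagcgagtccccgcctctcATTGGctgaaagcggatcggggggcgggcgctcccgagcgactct
Idi1: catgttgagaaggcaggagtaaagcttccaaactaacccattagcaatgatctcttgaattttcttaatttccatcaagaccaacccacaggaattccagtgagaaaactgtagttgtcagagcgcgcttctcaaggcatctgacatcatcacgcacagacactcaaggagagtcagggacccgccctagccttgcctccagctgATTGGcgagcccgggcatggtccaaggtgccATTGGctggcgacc
Dhcr7: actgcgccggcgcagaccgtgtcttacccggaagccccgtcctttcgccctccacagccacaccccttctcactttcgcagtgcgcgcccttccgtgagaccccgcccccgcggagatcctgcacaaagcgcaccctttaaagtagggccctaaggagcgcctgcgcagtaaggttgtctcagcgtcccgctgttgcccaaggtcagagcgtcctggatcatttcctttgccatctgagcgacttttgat
The Dhcr7 window holds neither lettering, which says only that these letters are not in these bases.

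Tdp-43 binds RNA rich in alternating U and G. In the longest coding transcript of each of the 7 genes in GENCODE M21, the longest unbroken run of alternating T and G was 6 to 8 bases long. Among 11950 genes that averaged 1 FPKM or more (the deposited unit, fragments counted per kilobase of exon and normalised to a library's mapped total), the median was 7 bases. Idi1 and Hmgcs1 had 6, as short a run as any of the 7, and 81.0% of the 11950 genes had a run at least as long. Lss, Cyp51 and Dhcr7 had 8, a length reached by 30.2%. Introns were not searched, and binding was not tested. The runs of Idi1, in the 3'UTR, and of Dhcr7, in the coding sequence, are shown in capitals within 25 bases of the sense strand. These 25 bases lie at chr13:8891658-8891682 for Idi1 and at chr7:143845532-143845556 for Dhcr7.
Idi1: tagtcataaTGTGTGagtgagttct
Dhcr7: ggggagatTGTGTGTGgctgcccta

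Depth limits what these libraries resolve. The deposited files give no read totals, and relative depth was read from the 95% interval that comes with each FPKM value. Relative to the deepest library it was 0.612 or more in each somatodendritic control library and 0.53 or more in each axonal control library. Somatodendritic knockdown libraries reached down to 0.143 and axonal ones to 0.103, and 5 knockdown libraries lay under 0.5. Of 6 motoneuron markers with a row, Chat, Isl2 and Mnx1 were listed at 0 in every library, and the markers summed to at most 8.90 FPKM in any library. The summed astrocyte markers were at 257 to 330 FPKM in somatodendritic control and 178 to 320 in somatodendritic knockdown libraries. In these control libraries Fabp7 averaged 173, Slc1a3 87.4, Aldh1l1 16.4, Gfap 9.36 and Aqp4 4.39 FPKM. In the knockdown libraries Fabp7 averaged 93.7, Slc1a3 112, Aldh1l1 15.9, Gfap 22.4 and Aqp4 5.19 FPKM. The sum thus follows mainly Fabp7 and Slc1a3 and hides moves in opposite directions. The defining motoneuron markers thus do not show the labelled cell type, and astrocyte markers were among the transcripts present. In such bulk samples, fewer cells of a type and less RNA per cell cannot be told apart.

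Tardbp, the gene of Tdp-43, was measured first as a check of the labels. In the somatodendritic compartment it averaged 27.3 ± 5.55 FPKM (SD, n = 4) in control and 4.01 ± 3.44 (n = 6) in knockdown libraries, or 14.7% of control, and the difference passed the test (adjusted p = 0.0228, limma with Benjamini-Hochberg adjustment). In axons it was at 32.4, 20.2, 32.3 and 13.4 FPKM in control and at 33.2, 1.21, 4.97, 13.1, 13.98 and 11.5 FPKM in knockdown replicates 1 to 6. The library labelled axonal knockdown replicate 1 had the highest Tardbp level of all axonal libraries and thus goes against its label, and replicate 5 lay above control replicate 4, with a deposited interval from 0.0 to 103 FPKM. The axonal tests of the 7 genes are also given without replicate 1. The axonal difference of Tardbp did not pass (limma, adjusted p = 0.427).

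Each of the 7 genes was listed above 0 in every library, except that Dhcr7 was listed at 0 in axonal knockdown replicate 5. The deposited interval reached 0 in all 6 somatodendritic knockdown libraries for Idi1 and Lss, and in all 4 axonal control libraries for Dhcr7. FPKM is scaled by transcript length, so that levels can be compared between genes. In somatodendritic control libraries Hmgcs1 had the highest mean, 89.0 ± 10.2 FPKM, followed by Sqle at 79.4 ± 14.6 and Fdft1 at 66.4 ± 8.31, whose ranges overlapped (SD, n = 4). A gap followed, and Idi1 (34.8 ± 5.99), Cyp51 (28.9 ± 2.10) and Lss (27.7 ± 5.71) formed a middle group with overlapping ranges. Dhcr7 was lowest at 18.0 ± 3.63 FPKM, below every Lss value. In axonal control libraries the order began in the same way, with Hmgcs1 at 64.0 ± 10.0 and Sqle at 58.0 ± 13.3 FPKM. Fdft1 lay apart from them at 27.2 ± 6.60 FPKM, and the ranges of its lower neighbours, Cyp51 (23.7 ± 10.4), Idi1 (21.7 ± 6.71), Lss (21.0 ± 13.1) and Dhcr7 (17.3 ± 9.02), overlapped in turn. In somatodendritic knockdown libraries Fdft1 was first at 90.0 ± 8.54, Dhcr7 held the fourth place at 51.6 ± 27.7, and Idi1 was last at 8.81 ± 2.70 FPKM (n = 6), although each neighbouring pair overlapped. In axonal knockdown libraries every neighbouring pair overlapped as well, and Sqle was highest at 68.7 ± 32.7 and Dhcr7 lowest at 16.6 ± 12.3 FPKM. The 7 genes together summed to 344 ± 28.0 FPKM in somatodendritic control, 363 ± 37.7 in somatodendritic knockdown, 233 ± 56.1 in axonal control and 270 ± 130 in axonal knockdown libraries.

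**Figure D1:**
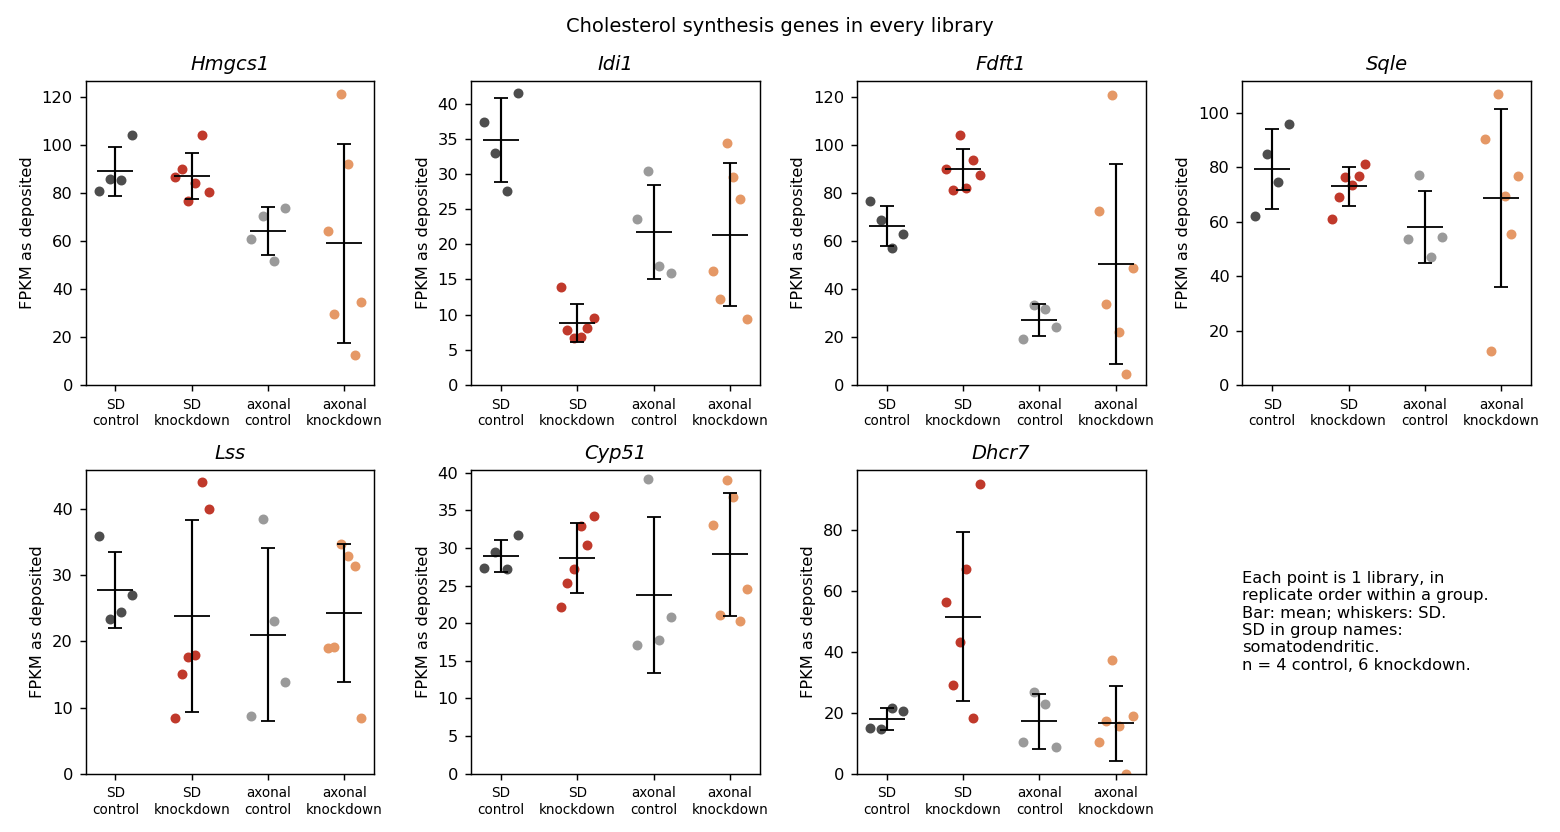
FPKM as deposited (vertical axis, linear) of the 7 genes in each of the 20 libraries, by group; each point is 1 library, with the group mean and SD. Idi1 is low in the 6 somatodendritic knockdown libraries, at 6.68 to 13.9 FPKM against 27.5 to 41.4 in control, while the axonal knockdown libraries spread widely for most genes.

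In the somatodendritic compartment, Idi1 was the 1 gene of the 7 that passed the adjusted threshold of the main limma test after knockdown. It was at 37.4, 33.0, 27.5 and 41.4 FPKM in control replicates 1 to 4. In knockdown replicates 1 to 6 it was at 13.9, 7.81, 6.68, 6.90, 8.04 and 9.53 FPKM. Each knockdown library thus lay below every control library, and the mean was 25.3% of control. On the scaled log2(FPKM + 1) scale used for testing, Idi1 fell by 2.09 ± 0.25 (SE, limma, adjusted p = 0.00112), with a 95% interval from -2.63 to -1.55. The median gene of the 13762 tested stood at -0.13 on the same scale, so that Idi1 was at -1.96 relative to it. Across all genes 0.974% had an adjusted p under 0.05 in either direction and 0.756% were lower, and 3.6% had knockdown values that all lay below the control values after scaling. Leaving out each library in turn gave -2.20 to -2.02, with an adjusted p of at most 0.00828 in limma. Without the 2 knockdown libraries of relative depth under 0.5, the difference was -2.10 (limma, adjusted p = 0.00269). The deposited 95% interval of Idi1 reached 0 in each of the 6 knockdown libraries, and its upper limits, 19.5 to 68.0 FPKM, lay above the lowest lower limit among control libraries, 16.2 FPKM. Each library alone therefore carries a wide error for this gene, and the call rests on the 6 libraries jointly.

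Dhcr7, the reductase of the last step, was higher in most knockdown libraries without passing the test. It was at 15.02, 14.7, 21.7 and 20.6 FPKM in control replicates 1 to 4 and at 56.4, 29.3, 43.2, 67.3, 18.3 and 95.2 FPKM in knockdown replicates 1 to 6. Thus 5 of 6 knockdown libraries lay above all control libraries and replicate 5 lay among them, and the mean was 287% of control. The scaled log2 difference was 1.10 ± 0.40 (SE, limma, p = 0.0163, adjusted p = 0.231), and the two-sided exact permutation test on FPKM gave p = 0.0524. Unadjusted p under 0.05 was reached by 13.8% of all genes tested. Without the 2 shallow knockdown libraries the difference was 1.15 with an adjusted p of 0.0542 in limma.

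Fdft1, squalene synthase, showed how far the scaling matters here. It was at 76.6, 68.9, 57.1 and 63.1 FPKM in control and at 90.3, 81.4, 104, 82.3, 93.8 and 87.4 FPKM in knockdown replicates. As deposited, all 6 knockdown values lay above the control values, as was so for 4.24% of all genes, and the mean was 135% of control. The exact permutation test of FPKM, two-sided, gave 0.00476, which is the lowest p possible with 4 against 6 libraries. After scaling, which divided control libraries by 0.905 to 0.969 and knockdown libraries by 0.993 to 1.15, the groups overlapped and the log2 difference was 0.22 ± 0.15 (SE, limma, adjusted p = 0.546). With FPKM as deposited, limma gave 0.43 (adjusted p = 0.155).

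**Figure D2:**
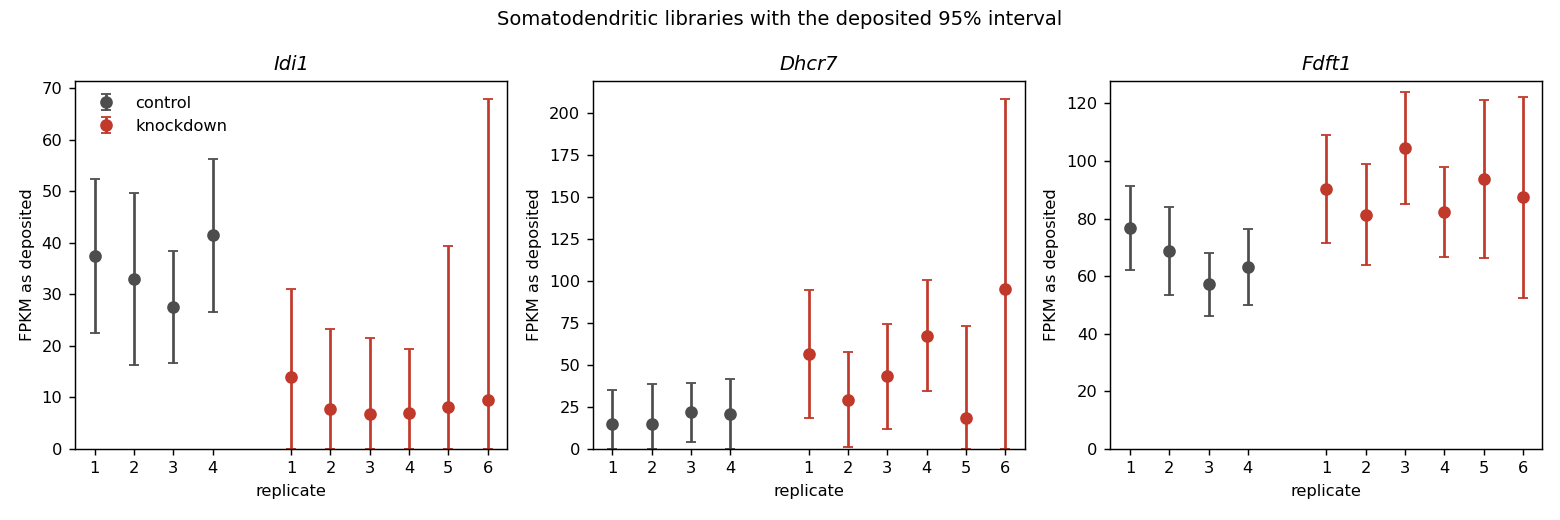
FPKM as deposited (vertical axis) of Idi1, Dhcr7 and Fdft1 in the 4 control and 6 knockdown somatodendritic libraries, by replicate; whiskers are the deposited 95% intervals. For Idi1 all knockdown points lie below the control points although each knockdown interval reaches 0, and for Dhcr7 replicate 5 lies with the controls.

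None of the other 4 genes passed the test. Hmgcs1 was at 81.0 to 104 FPKM in control and 76.5 to 104 in knockdown libraries, a log2 difference of -0.24 with a 95% interval from -0.53 to 0.04. Sqle was at 62.0 to 96.1 and 61.1 to 81.4 FPKM (log2 difference -0.32, interval -0.67 to 0.04). Cyp51 was at 27.2 to 31.7 and 22.1 to 34.3 FPKM (log2 difference -0.23, interval -0.64 to 0.18). With FPKM as deposited the 3 differences were -0.033, -0.11 and -0.024, and that of Sqle was -0.43 without control replicate 1 (limma, adjusted p = 0.380). Lss was at 23.4 to 36.0 FPKM in control, and in knockdown libraries 4 values lay between 8.45 and 18.0 and the 2 shallowest libraries were at 44.1 and 39.9. Its log2 difference was -0.60 with an interval from -1.47 to 0.27, and without these 2 libraries it was -1.09 (limma, adjusted p = 0.0769). Without knockdown replicate 1, which had the lowest value, it was -0.35 (limma, adjusted p = 0.699), and the log2 ratio of the deposited means was -0.22. Over the 7 genes, 1 passed the adjusted threshold, against 0.974% of all genes, and 2 had an unadjusted p under 0.05, against 13.8%. The latter count ran from 1 with all 20 libraries in 1 fit to 5 with array weights, and was 4 without knockdown replicate 6. No share of all genes is given for these other fits, so that their counts cannot be set against 13.8%. In the main fit the median log2 difference of the 7 genes was -0.24, against -0.13 over all genes.

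**Figure D3:**
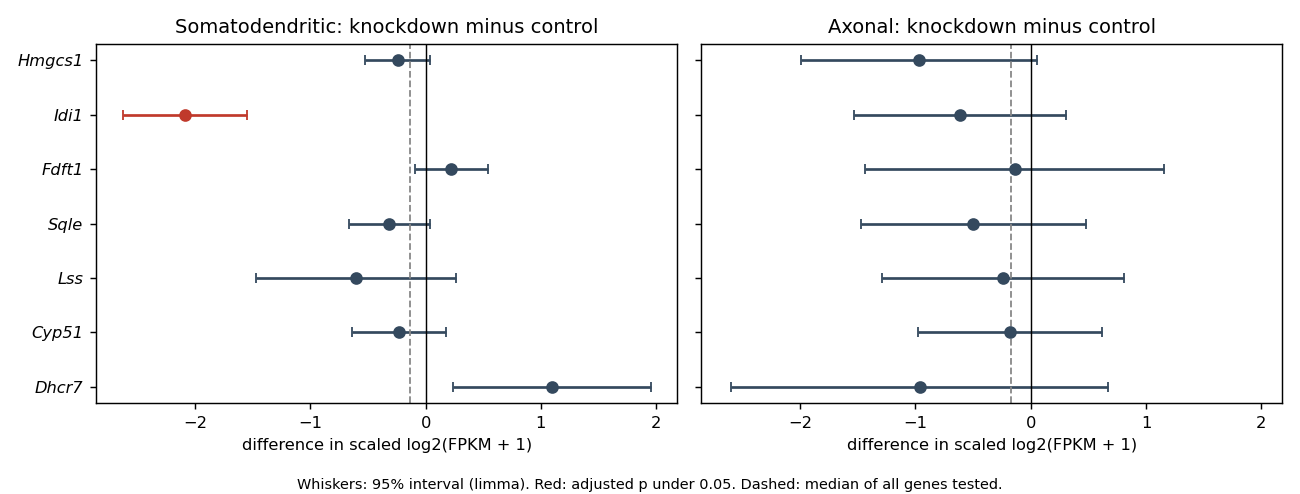
Difference between knockdown and control in scaled log2(FPKM + 1) (horizontal axis) of the 7 genes in the somatodendritic and the axonal compartment, with 95% intervals; the dashed line is the median of all genes tested. Only Idi1 in the somatodendritic compartment, at -2.09, has an adjusted p under 0.05.

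Among 11 further enzymes of the pathway, listed by their role with earlier results known, none passed the adjusted threshold in the somatodendritic compartment. At an unadjusted p under 0.05 were 4 of the 11, all lower, against 9.22% of all genes that were lower at this threshold. Fdps, which uses the product of Idi1 to make farnesyl units, was at 41.6 ± 5.48 FPKM in control and 18.2 ± 10.5 in knockdown libraries (log2 difference -1.51, limma adjusted p = 0.0682). Pmvk and Mvd, the kinase and the decarboxylase just before Idi1, had log2 differences of -1.56 and -0.41 (limma, adjusted p = 0.268 and 0.336). Pmvk was listed at 0 in 1 of the 6 knockdown libraries, and its deposited interval reached 0 in all 6 and in no control library. Sc4mol, which removes the methyl groups after Cyp51 and is also called Msmo1, was at -0.63 (limma, adjusted p = 0.105). Of 7 regulators of the pathway, Insig2, which retains Srebp proteins in the endoplasmic reticulum, was at -0.99 and had the 1 unadjusted p under 0.05 of these 7, against 13.8% of all genes, and Srebf2, the gene of Srebp2, was at 0.05 (limma, adjusted p = 0.304 and 0.949). The deposited interval of Insig2 reached 0 in all 4 control and all 6 knockdown libraries. Of all genes tested, 40.7% lay above 0 in this comparison. Of 9 genes of lipoprotein uptake and sterol transport, 8 were above 0 and none of these had an unadjusted p under 0.05, while Npc2, which carries cholesterol out of lysosomes, was at -0.92 (limma, adjusted p = 0.229). Of 8 genes of fatty acid synthesis, Acly (0.48), Fasn (0.55) and Elovl6 (-0.82) had an unadjusted p under 0.05, again against 13.8% of all genes, and their adjusted p in limma ranged from 0.102 to 0.217. The 6 genes that branch to ubiquinone, dolichol and prenylation all lay below 0, with a median of -0.69, and none had an unadjusted p under 0.05. Beside these values, the summed oligodendrocyte markers were at 9.17 to 16.2 FPKM in control and 12.6 to 55.9 in knockdown libraries, and the summed markers of dividing cells at 49.1 to 69.3 and 0.955 to 57.4 FPKM. Of single markers, Gfap (astrocyte) was at 0.92, Fabp7 (astrocyte) at -1.14, C1qa (microglia) at -1.91, Pmp22 (Schwann cell) at -1.49 and Ccnb1 (dividing cell) at -1.69. These had an unadjusted p under 0.05, against 13.8% of all genes, and none passed the adjusted threshold (limma, adjusted p from 0.0648 to 0.302). No oligodendrocyte marker had an unadjusted p under 0.05. Their part in the results was not tested.

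**Figure D4:**
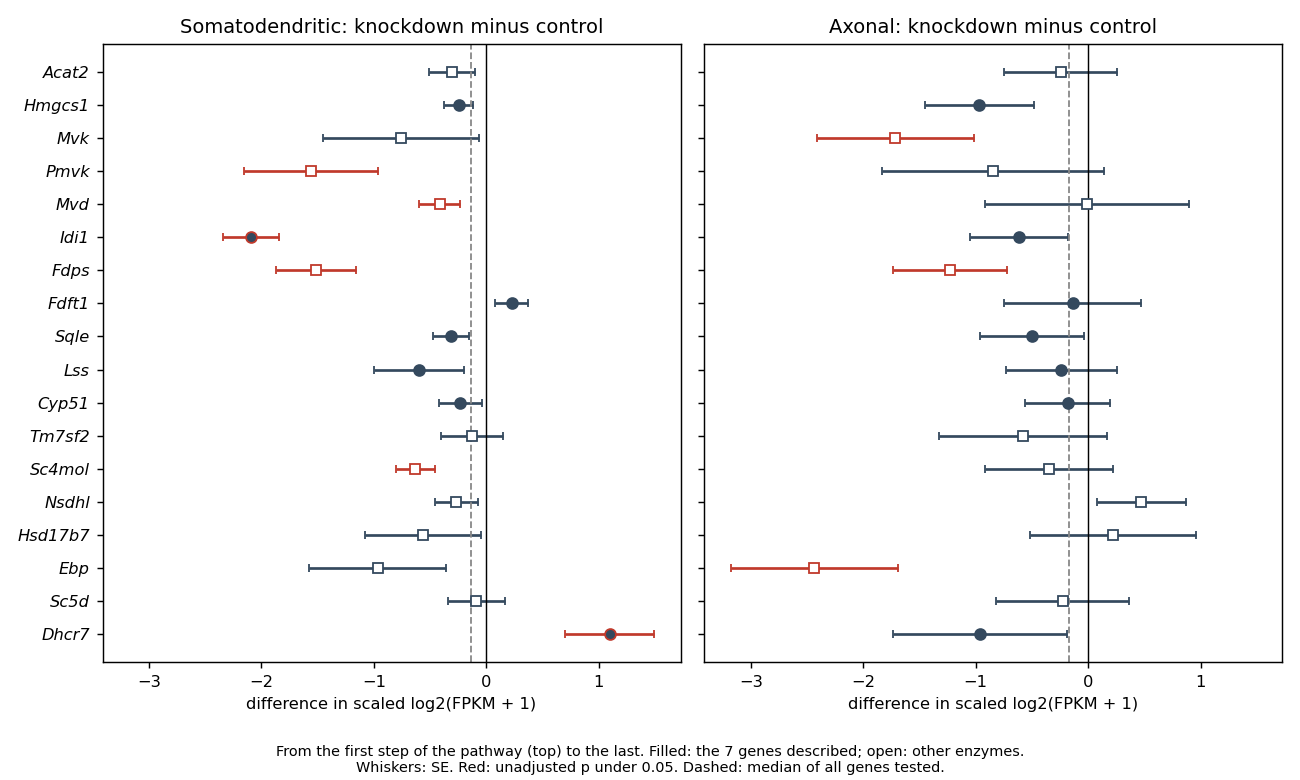
Difference between knockdown and control in scaled log2(FPKM + 1) (horizontal axis, whiskers SE) of 18 enzymes, ordered from the first to the last step of cholesterol synthesis; filled points are the 7 genes described, red marks an unadjusted p under 0.05. In the somatodendritic panel Pmvk, Mvd, Idi1, Fdps and Sc4mol lie below 0 and Dhcr7 above 0 with an unadjusted p under 0.05, and of these Idi1 alone passed the adjusted threshold.

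In axons no gene of the 7 passed the test after knockdown, and none had an unadjusted p under 0.05. Of the 13958 genes tested there, 0.401% had an adjusted p and 8.6% an unadjusted p under 0.05. Axonal Idi1 was at 23.6, 30.5, 16.96 and 15.98 FPKM in control and at 16.2, 12.3, 34.4, 29.6, 26.4 and 9.37 FPKM in knockdown replicates, so that the groups overlapped, with a mean at 98.3% of control. Its scaled log2 difference was -0.62, with a 95% interval from -1.54 to 0.30. Axonal Hmgcs1 ranged from 51.4 to 73.6 FPKM in control and from 12.3 to 121 in knockdown libraries. Replicates 2, 5 and 6 lay below and replicates 3 and 4 above all control libraries, with a log2 difference of -0.97 ± 0.48 (SE, limma, adjusted p = 0.608). It was -0.61 without knockdown replicate 5, -0.56 without the 3 libraries of relative depth under 0.5, -0.45 with FPKM as deposited and -0.12 as the log2 ratio of the deposited means. Axonal Fdft1 was at 19.3 to 33.5 FPKM in control and at 72.6, 33.6, 121, 22.2, 4.65 and 48.7 FPKM in knockdown replicates, and Sqle was at 46.9 to 77.3 and 12.4 to 107 FPKM. Axonal Dhcr7 was at 10.4, 26.9, 23.01 and 8.89 FPKM in control and at 10.4, 17.4, 37.5, 15.6, 0.0 and 19.02 FPKM in knockdown replicates. Its log2 difference was -0.96 (interval -2.60 to 0.67), and -0.28 without knockdown replicate 5, where it was listed at 0. Lss was at 8.70 to 38.6 and 8.41 to 34.8 FPKM (log2 difference -0.24, interval -1.29 to 0.81), and Cyp51 at 17.2 to 39.1 and 20.3 to 39.1 FPKM (-0.18, interval -0.98 to 0.62). After scaling all 7 log2 differences were below 0, from -0.97 for Hmgcs1 to -0.14 for Fdft1, with a median of -0.50 against -0.17 over all genes. With FPKM as deposited, Fdft1, Sqle, Lss and Cyp51 were above 0, and without the 3 knockdown libraries of relative depth under 0.5 so were Fdft1 and Sqle, so that no direction is given for these genes in axons. In the 5 axonal knockdown libraries other than replicate 1, Hmgcs1 averaged 58.0 ± 46.3 FPKM (SD, n = 5) and Fdft1 46.0 ± 44.9, and the mean of Idi1 was 103% of control. The scaled differences then ran from -1.01 for Hmgcs1 to -0.15 for Lss, with Idi1 at -0.53 and Fdft1 at -0.30, and again none of the 7 had an adjusted or an unadjusted p under 0.05 in limma. Of the 11 further enzymes, Mvk (-1.72), Fdps (-1.23) and Ebp (-2.44) had an unadjusted p under 0.05, all lower, against 6.46% of all genes that were lower at this threshold, and none passed the adjusted one (limma, adjusted p from 0.283 to 0.499). Without the library labelled knockdown replicate 1 they were at -1.83, -1.27 and -2.78 (limma, adjusted p from 0.156 to 0.488). Mvk was listed at 0 in 1 and Ebp in 2 of the 6 axonal knockdown libraries. For both, the deposited interval reached 0 in 5 of these 6 and in 3 of the 4 control libraries. Their differences therefore rest on values near the floor. The interval of Fdps reached 0 in 2 of the 6 knockdown libraries and in no control library. The spread within the axonal knockdown group was wide: the SD of scaled log2(FPKM + 1) was 1.73 for Dhcr7, 1.40 for Fdft1 and 1.03 for Hmgcs1, against 0.79, 0.37 and 0.16 in axonal control libraries.

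Between compartments of control cells, 6 of the 7 genes had log2 differences (axonal minus somatodendritic) from -0.18 to 0.32 after scaling, with intervals that held 0. The direction of 4 of these depended on the scaling: with FPKM as deposited all 7 genes were at lower axonal means, from 40.9% of the somatodendritic mean for Fdft1 to 96.1% for Dhcr7, Idi1 was at -0.69, and Hmgcs1 (-0.48), Sqle (-0.45), Cyp51 (-0.35) and Dhcr7 (-0.18) lay below 0. The median of all genes tested was -0.48 with FPKM as deposited and -0.06 after scaling. None of the 7 passed the test, against 6.9% of 13760 genes. As deposited, each of the 4 axonal libraries lay below every somatodendritic one for Fdft1 and for Hmgcs1, as was so for 19.0% of all genes, and after scaling for Fdft1 alone of the 7. The log2 difference of Fdft1 after scaling was -0.77 ± 0.24 (SE, limma, adjusted p = 0.0840), and 22.9% of all genes had an unadjusted p under 0.05. Scaled axonal values all below the somatodendritic ones were found for 8.54% of all genes. With FPKM as deposited the difference was -1.28 (limma, adjusted p = 0.00714), a value that includes the shift of the median gene. Beside this, the summed markers of dividing cells were at 94.4 to 179 FPKM in axonal and 49.1 to 69.3 in somatodendritic control libraries. The summed fibroblast markers were at 11.9 to 47.9 and 1.43 to 11.9 FPKM. Of single markers, Cdk1 (1.675), Top2a (1.502) and Mki67 (1.582) of dividing cells passed the adjusted threshold (limma, adjusted p = 0.01171, 0.01257 and 0.03329). So did Col1a1 (fibroblast), at 3.511 (limma, adjusted p = 0.004417), and no other marker tested. Ccnb1 (dividing cell) was at 1.216 (limma, adjusted p = 0.121). The summed astrocyte markers were at 63.5 to 429 FPKM in axonal and 257 to 330 in somatodendritic control libraries, where each of the 5 had a log2 difference below 0, with Gfap at -1.96 and Aqp4 at -1.24 (limma, adjusted p = 0.0884 and 0.170). The summed microglia markers were at 0.0 to 17.6 and 4.60 to 30.3 FPKM, with Cx3cr1 at -1.44 and C1qa at -1.82 (limma, adjusted p = 0.109 and 0.175). Their part in the result was not tested.

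In knockdown cells Idi1 was the gene of the 7 with the highest axonal level relative to the somatodendritic one, at 243% of it as deposited. The log2 difference was 1.31 ± 0.37 (SE, limma, adjusted p = 0.0906), 4 of 6 axonal libraries lay above all somatodendritic ones, and the 2 others, replicates 2 and 6, were at 12.3 and 9.37 FPKM. Dhcr7 was at 32.3% of the somatodendritic mean in axons (log2 difference -1.76 ± 0.70, limma adjusted p = 0.213), and Fdft1 at 56.1% (-1.11 ± 0.50, adjusted p = 0.277). The difference of Fdft1 was -0.58 without knockdown replicate 5 of both compartments and -0.14 without the libraries of relative depth under 0.5, where that of Dhcr7 was -1.12. None of the 7 passed the adjusted threshold, against 1.28% of 14021 genes, while 3 had an unadjusted p under 0.05, against 16.6%. Without the library labelled axonal knockdown replicate 1, Idi1 was at 1.40, Dhcr7 at -1.72 and Fdft1 at -1.28 (limma, adjusted p = 0.111, 0.289 and 0.253). In a fit of all 20 libraries together Idi1 had an adjusted p of 0.0147 in limma. Beside this, the summed fibroblast markers were at 11.4 to 81.1 FPKM in axonal and 0.0 to 13.9 in somatodendritic knockdown libraries, and the summed markers of dividing cells at 19.3 to 253 and 0.955 to 57.4 FPKM. Of single markers only Col1a1 (fibroblast) passed the adjusted threshold, at 3.41 (limma, adjusted p = 0.0186). Pmp22 (Schwann cell) was at 2.51 and Sox10 (oligodendrocyte) at -1.66 (limma, adjusted p = 0.116 and 0.0968). All 5 astrocyte markers lay below 0, none with an unadjusted p under 0.05. Their part in these values was not tested.

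**Figure D5:**
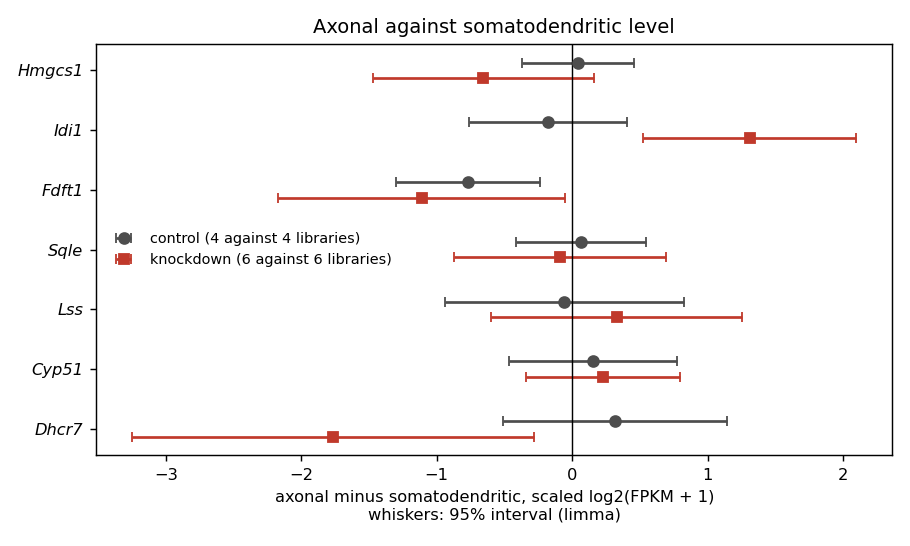
Axonal minus somatodendritic difference in scaled log2(FPKM + 1) (horizontal axis, 95% intervals) of the 7 genes in control and in knockdown libraries. Idi1 is at -0.18 in control and 1.31 in knockdown libraries, and Dhcr7 at 0.32 and -1.76, and the interval of Fdft1 lies below 0 in both, although its value in knockdown libraries was -0.14 without the shallow ones.

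Whether knockdown acted differently in the 2 compartments was tested as the difference of the 2 effects. For Idi1 it was 1.43 ± 0.48 (SE, limma, adjusted p = 0.760), that is, the axonal difference was less negative than the somatodendritic one. For Dhcr7 it was -2.11 ± 0.96 (SE, limma, adjusted p = 0.875). Without the library labelled axonal knockdown replicate 1, Idi1 was at 1.51 and Dhcr7 at -2.06 (limma, adjusted p = 0.482 and 0.731), and 1 of the 7, Idi1, had an unadjusted p under 0.05. None of the 7 had an adjusted p under 0.05, against 0.0711% of 14062 genes, and 2 had an unadjusted one, against 5.61%. The change of Idi1 in the somatodendritic compartment is therefore not shown to differ from that in axons.

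The likeness of the 7 genes to each other was described by correlation, with no other gene set for comparison. Over the 10 somatodendritic libraries, which include both groups and differ in depth, Pearson's r of scaled log2(FPKM + 1) was positive for 11 of 21 pairs, with a median of 0.34. Over the 10 axonal libraries it was positive for 19 of 21, with a median of 0.39. Against the mean of the other 6, r in the somatodendritic libraries was 0.84 for Cyp51, 0.72 for Sqle, 0.48 for Hmgcs1 and 0.41 for Lss, but 0.03 for Idi1, -0.32 for Fdft1 and -0.51 for Dhcr7. Cyp51 held place 28 among 5884 genes of at least 10 FPKM in likeness to the other 6. The 5 genes most like the mean of all 7 over these libraries were Cox7a2l (r = 0.99), Btbd10, Ppm1g, Rspry1 and Gm9396 (r from 0.91 to 0.92). Among the 10 further enzymes of at least 10 FPKM, Fdps had the highest r, 0.67. These correlations describe 10 libraries only. Within the somatodendritic control group, the SDs of the 7 genes ran from 0.09 for Cyp51 to 0.27 for Lss on the log2 scale, against a median of 0.31 over 5631 genes of at least 10 FPKM.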

How the data were processed

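RNA from the somatodendritic and the axonal compartment was reverse transcribed, amplified by PCR and sequenced. The authors deposited FPKM per gene and library with a 95% interval, made after FastQC 0.10.1 with Cufflinks 2.2.1 on GRCm38 per the labels' processing notes. The files' names point to STAR as the aligner. Its version and the gene annotation are not given in the sources used here. Because the deposited unit is FPKM, no count test was run, and PCR duplicates cannot be told apart from separate molecules.

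Groups came from the sample labels, which name the compartment and the genotype but no batch and no separate cultures, so that p-values measure the spread between these libraries, which may be technical. Within each comparison, a median-of-ratios factor over genes of 1 FPKM or more in each library scaled the values, which were then set to log2(FPKM + 1). This scale understates the change of low genes. Genes averaging 1 FPKM or more entered limma 3.58.1 (lmFit, eBayes with a trend; R 4.3.3), with Benjamini-Hochberg adjustment over all genes. A gene was called at an adjusted p under 0.05. For single genes, FPKM was also permuted over all 210 splits of 4 against 6 libraries (exact, two-sided). The tests were checked on simulated data. Relative depth was computed over 680 genes from the deposited intervals, read as counting error. Values at or under 0.001 FPKM count as listed at 0.

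The members and lists were chosen with earlier results of these data known. A single listed enzyme is not reported here and enters no count over its list. All 7 genes are described in each knockdown comparison. From the other lists, genes with an unadjusted p under 0.05 and the extremes were named, and likeness was Pearson's r over 10 libraries. The alternatives were no scaling of the FPKM, quantile normalization, another pseudocount (0.1 or 5), no filter or a mean of 5 FPKM, array weights, 1 fit of all 20 libraries, a block by replicate number and leaving out each library. Leaving out libraries of relative depth under 0.5, and between compartments the library labelled axonal knockdown replicate 1 alone, was added after seeing the data. Python 3.11.15, numpy 2.4.6, pandas 2.3.3, scipy 1.17.1 and matplotlib 3.10.9 were used.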

Additional observations from a re-analysis of the deposited data

Results flagged for a closer look

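Of 28 sets of values, 7 genes in 4 groups each, 1 held a library far from the others by Dixon's 95% criterion, where chance gives about 1 in 20. Cyp51 was at 39.1 FPKM in axonal control replicate 2, against 17.2, 17.8 and 20.9 FPKM in the other 3 axonal control libraries. The same library also had the highest axonal control values of Idi1 (30.5 FPKM), Fdft1 (33.5), Sqle (77.3), Lss (38.6) and Dhcr7 (26.9), while Hmgcs1, at 70.3 FPKM, was second to replicate 4.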

How the results depend on the processing

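Somatodendritic Idi1 was below control under each alternative run, from -2.21 to -1.69 on the log2 scale, and with leave-one-out from -2.20 to -2.02. Its adjusted p in limma was under 0.05 in all of these except with the replicate number as a block, where it was 0.0508 at a difference of -2.11, so that the count of called genes went from 1 to 0. Replicates 5 and 6 exist in knockdown only and add nothing to that block fit. Same-numbered libraries did not deviate together: correlations of their deviations ran from -0.0356 to 0.0714, 1 of 10 axonal libraries correlated best with its own number, and the numbers were not taken as pairing. With exact permutation of FPKM as deposited, 2 somatodendritic genes, Idi1 and Fdft1, had a p under 0.05. This test was run on the 7 genes and Tardbp only, so that the count has no share over all genes beside it. With FPKM as deposited, the median of all genes tested in limma was 0.04. Between compartments, the count of called genes went from 0 to 1 in control cells with FPKM as deposited (Fdft1), and from 0 to 1 in knockdown cells with all 20 libraries in 1 fit (Idi1).

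Other changes of direction concerned differences that passed no test, and the cause was not tested. For knockdown in axons they were, with FPKM as deposited, Fdft1 0.37, Sqle 0.018, Lss 0.26 and Cyp51 0.32, as log2 ratios of the deposited means 0.89, 0.24, 0.21 and 0.30, and for Fdft1 0.022 with quantile normalization, 0.42 with array weights and 0.33 with the replicate block. Without shallow libraries Fdft1 was 0.88 and Sqle 0.065. For axonal against somatodendritic control, FPKM as deposited gave Hmgcs1 -0.48, Sqle -0.45, Cyp51 -0.35 and Dhcr7 -0.18, quantile normalization Hmgcs1 -0.064 and Sqle -0.049, and Lss was 0.018 with array weights and 0.00058 with all 20 libraries. In knockdown cells Cyp51 was -0.0083 with FPKM as deposited, and Sqle 0.10 with array weights and 0.47 without shallow libraries. For the difference of effects Sqle was 0.12 with FPKM as deposited and 0.39 without shallow libraries, and Fdft1 0.16 with array weights and 0.62 without shallow libraries. Leave-one-out ranges that crossed 0 were, in axons after knockdown, Lss -0.57 to 0.10, Cyp51 -0.30 to 0.064 and Fdft1 -0.42 to 0.38. Between control compartments they were Sqle -0.012 to 0.16, Lss -0.45 to 0.40, Cyp51 -0.070 to 0.25 and Idi1 -0.34 to 0.0054, and between knockdown compartments Sqle -0.23 to 0.27. For the difference of effects they were Lss -0.13 to 0.77, Cyp51 -0.077 to 0.25, Sqle -0.36 to 0.15 and Fdft1 -0.62 to 0.12.

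Depth limits single values: the interval of Idi1 reached 0 in each somatodendritic knockdown library, that of Dhcr7 in 14 of 20 libraries and that of Lss in 15. The median of all genes tested moved between -0.24 and 0.04 in the somatodendritic and between -0.31 and 0.23 in the axonal knockdown comparison with the scaling, pseudocount, filter, weights and block.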
